A study of Sus scrofa with 6 samples.

Results

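The genes described here encode the proteins of the cytosolic ribosome. They were chosen by symbol: names of the form RPL or RPS with a number and at most one letter A, X or Y, the stalk proteins RPLP0 to RPLP2, and RPSA, while kinases such as the RPS6KA family were left out. With 1 gene that is not reported here set aside, 57 of 6765 genes with a symbol on the array met this rule, 34 of the large (60S) and 23 of the small (40S) subunit. IPEC-J2 and IPEC-1 are epithelial lines of the neonatal pig's small intestine, spontaneously immortalised, that grow as polarised monolayers. Both were grown on uncoated membrane inserts at 39 °C in the same medium with fetal calf serum, insulin-transferrin-selenium and epidermal growth factor, and neither received a treatment, so that cell line is the only labelled difference between the groups. The labels give 7 days of culture and the methods a longer time. RNA of 3 IPEC-J2 cultures and 3 IPEC-1 cultures (500 ng each) was hybridised to 6 Affymetrix Porcine Genome Arrays, 1 culture per array, and as each group is a single cell line, the p-values cover only the spread between its cultures.

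Ribosomes translate the mRNAs of the cell. The large subunit holds the peptidyl transferase centre, which joins amino acids, and the tunnel through which the new chain leaves, while the small subunit reads the codons. Most ribosomal proteins are present in equal numbers, and in mammals their mRNAs share a pyrimidine tract at the 5′ end (TOP mRNAs) through which mTOR signalling controls their translation. In the intestine, ribosomes are built at a high rate in the dividing cells of the crypts. What the comparison asks is whether the level of these mRNAs differs between the cell lines, and whether the proteins of the ribosome move together.

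The labelled cell type was checked against its markers. Of 11 epithelial markers 10 were measured, 4 called higher and 1 lower in IPEC-J2. EPCAM, an adhesion molecule of epithelial cells, had a mean log2 signal of 13.55 in IPEC-J2 and 13.39 in IPEC-1, and the keratin KRT19, the lower marker, 12.28 in IPEC-J2 and 13.08 in IPEC-1. The brush border protein VIL1 averaged 13.89 in IPEC-J2 and 6.99 in IPEC-1, where replicate 2 was at the floor, and CLDN3, of the tight junctions, averaged 6.14 in IPEC-J2, against the floor value in all 3 IPEC-1 samples. The other 2 called higher were the transcription factor HNF4A (8.68 in IPEC-J2, 4.60 in IPEC-1) and the claudin CLDN7 (11.53 in IPEC-J2, 10.44 in IPEC-1). Of markers of other cells, 2 of 4 leukocyte markers and 5 of 8 fibroblast or endothelial markers with a value were at the floor of the table on every array. CD3E (floor in IPEC-J2, 5.93 in IPEC-1) and PECAM1 (4.29 in IPEC-J2, 5.75 in IPEC-1) were called lower. The part of these differences in the results was not tested. The floor, a log2 signal of exactly 4, is the lowest value of the table, and genes at it have no order. It held 40.5 to 48.3% of the probe sets per array, with the highest share on IPEC-J2 replicate 1, which also had the lowest 75th percentile (8.31, against 8.51 to 8.56 on the other arrays). Signals were averaged over the probe sets of a gene. Genes were tested with limma over the 5513 genes above the floor on at least 1 array, and a gene is called higher or lower where its p, adjusted over all of them, is under 0.05.

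Of the 57 ribosomal protein genes, 55 were above the floor. RPL30 and RPS15A were at the floor on every array and have no comparison. In IPEC-J2, 1 of the 55 genes was called higher (RPS25) and 1 lower (RPL15) than in IPEC-1, where 12% of all genes tested were called higher and 13.8% lower. The share of members called was below that of the whole table in both directions in this fit, and for the lower direction the order turns round in the fits given further on. At an unadjusted p under 0.05 there were 2 members higher and 8 lower, where 17.4% of all genes were higher and 21.8% lower. None of the members differed by more than 1 on the log2 scale, a size that 17.3% of all genes passed, and 41 of the 55 differed by less than 0.25, against 33.2% of all genes. The differences (IPEC-J2 minus IPEC-1) lay between -0.73 and 0.75, with a median of -0.11 for the members and -0.05 for all genes tested. In RNA from whole cultures, fewer cells with a transcript and less of it per cell cannot be told apart.

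The subunits had different medians. Among 33 measured genes of the 60S subunit the median log2 difference was -0.18, with 27 genes negative and 6 positive, whereas among 22 of the 40S subunit it was 0.005, with 10 negative, 11 positive and 1 at no difference. This difference between subunits was described and not tested. All 3 IPEC-J2 arrays lay below all 3 IPEC-1 arrays for 23 members, 15 of them of the 60S subunit, and above them for 7, of which 5 belonged to the 40S subunit. Over all genes tested, 27.6% separated in this way as lower and 19.8% as higher. Relative to each gene's mean over the 6 arrays, the median deviation of the 60S genes was -0.12, -0.09 and -0.06 on IPEC-J2 replicates 1, 2 and 3, and 0.08, 0.11 and 0.03 on IPEC-1 replicates 1, 2 and 3. For the 40S genes it was -0.06, 0.02 and 0.01 on the IPEC-J2 arrays and 0.01, 0.04 and 0.01 on the IPEC-1 arrays. The median of the 60S genes thus stood lower on each IPEC-J2 array than on any IPEC-1 array, while the medians of the 40S genes overlapped. This holds for the medians and not for each 60S gene.

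**Figure D1:**
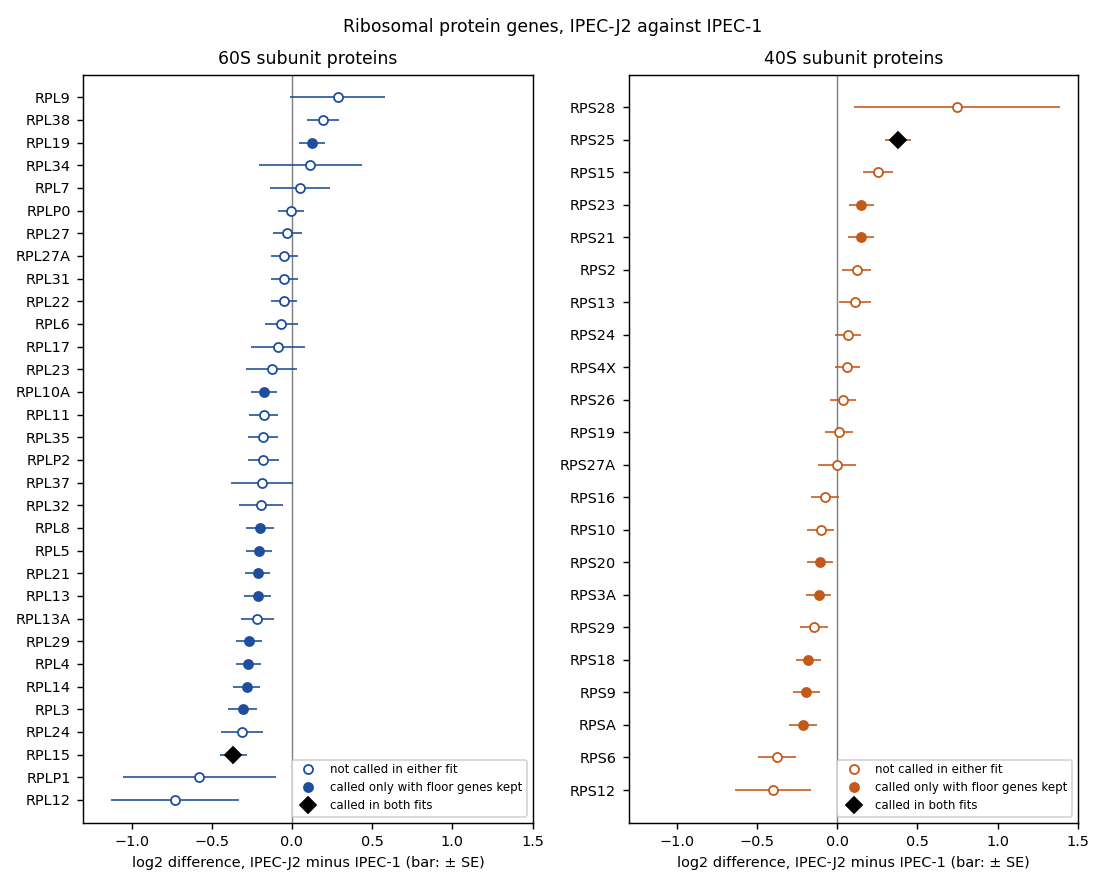
Log2 difference (IPEC-J2 minus IPEC-1, x axis) of each ribosomal protein gene (y axis), 60S on the left and 40S on the right, with bars of ± 1 moderated SE (3 arrays per cell line). Black diamonds are called whether or not genes that are at the floor throughout stay in the fit (RPL15, RPS25), filled circles only with them. RPL26 is left out because it was at the floor on 1 array of each line. The 60S genes lie mostly left of 0 and the 40S genes on both sides.

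How many members are called depends on how the spread is estimated. The arrays of a cell line lay close together for these genes, and the median pooled SD within a cell line was 0.0567 for the members and 0.214 for all genes tested. The moderation of limma draws the SD of each gene towards a value typical of the table, here 0.183, so that the moderated SE was above the ordinary SE for 44 of 55 members, with a median ratio of 1.89. If 1252 genes that never left the floor are kept in the fit, they bring SDs of 0, and the typical value is 0.0152. Then 4 members were called higher and 15 lower, where 9.46 and 11.2% of all 6765 genes were called, or 11.6 and 13.8% of the 5513 above the floor. With a trend of the spread on the signal and a robust prior the numbers were 4 and 16, where 13.3 and 15.8% of the genes were called. In these fits the lower calls made up 27.3 and 29.1% of the 55 measured members, above the share of the table, and the higher calls 7.27% in each, below it. Both ways of fitting called 17 members in common, 3 higher and 14 lower. The 19 members called with the floor genes kept, 15 lower and 4 higher, differed by 0.11 to 0.38 on the log2 scale, or 1.08- to 1.30-fold. The arrays of the cell lines did not overlap for any of them. Their sign within each culture note described below was therefore fixed beforehand and adds no support. Of the 60S genes 10 were among the lower and 1 among the higher, and of the 40S genes 5 and 3.

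RPL15 had the lowest adjusted p of the 60S proteins. This protein, needed for the assembly of the large subunit in human and yeast cells, had log2 signals of 13.30, 13.36 and 13.38 in IPEC-J2, against 13.71, 13.76 and 13.67 in IPEC-1. The mean was 13.35 ± 0.0416 in IPEC-J2 and 13.71 ± 0.0451 in IPEC-1 (SD, n = 3 each), a difference of -0.37 (SE 0.0838) with an adjusted p of 0.0285 (limma). RPL15 was called lower in 13 of 18 alternative fits, with adjusted p-values between 0.00217 and 0.114. It was not called with the arrays centred on their 75th percentile (-0.31, adjusted p = 0.0610), nor without IPEC-J2 replicate 3 (0.0582) or IPEC-1 replicate 1 (0.0538), nor with a block for replicate number (0.114) or culture note (0.0828).

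RPL3, RPL4, RPL14 and RPL29 followed RPL15 among genes with 1 probe set, and they are named after their values were seen. RPL3, which reaches close to the peptidyl transferase centre, had log2 signals of 13.07, 13.14 and 12.96 in IPEC-J2 and 13.34, 13.39 and 13.36 in IPEC-1. RPL4, which lines the narrow part of the exit tunnel, had 13.47, 13.46 and 13.45 in IPEC-J2 and 13.74, 13.72 and 13.74 in IPEC-1. The arrays of RPL4 differed by at most 0.02 within a cell line, and none of the IPEC-J2 arrays of either gene reached an IPEC-1 array. RPL14 had 13.39, 13.45 and 13.49 in IPEC-J2 and 13.73, 13.72 and 13.73 in IPEC-1. RPL29, a small basic protein of the 60S surface, had 13.41, 13.43 and 13.46 in IPEC-J2 and 13.69, 13.75 and 13.66 in IPEC-1. The cell lines did not overlap for these genes either. The differences were -0.31 for RPL3, -0.28 for RPL14 and -0.27 for RPL4 and RPL29, with adjusted p-values of 0.0604, 0.0568, 0.0556 and 0.0675, all just above the threshold. With the floor genes kept, the adjusted p-values were 0.0219 for RPL3, 0.00583 for RPL14, 0.000284 for RPL4 and 0.00730 for RPL29. Of the list of 8 proteins of the exit tunnel and its rim, to which RPL4 belongs, 6 were measured. Their differences were from -0.27 to 0.15 with a median of -0.07, and none was called by limma (1 lower at an unadjusted p under 0.05, and 1 called with trend and robust options). The value of 0.15 is that of RPL26 (SE 0.862), at the floor on 1 array of each line, and the next highest was RPL19 at 0.12.

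RPL5 and RPL11 bind the 5S rRNA, and in human cells this particle holds the ubiquitin ligase MDM2 when ribosome assembly is disturbed. RPL5 had log2 signals of 13.99, 13.99 and 14.05 in IPEC-J2 and 14.19, 14.25 and 14.21 in IPEC-1, a difference of -0.21 (SE 0.0814, adjusted p = 0.124). RPL11 had 13.68, 13.80 and 13.77 in IPEC-J2 and 13.95, 13.97 and 13.86 in IPEC-1, a difference of -0.18 (SE 0.0888, adjusted p = 0.199). The arrays of the cell lines did not overlap for either gene. Neither was called by limma as reported, and both were with trend and robust options. RPL10A, a protein of the L1 stalk where the used tRNA leaves, had 13.53, 13.61 and 13.56 in IPEC-J2 and 13.73, 13.77 and 13.72 in IPEC-1. Its difference of -0.17 (SE 0.0817) again came from arrays that did not overlap, and its call turned on the fit: the adjusted p was 0.175 as reported, 0.0176 with the floor genes kept and 0.387 at the highest, and 3 of 18 alternative fits called it.

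The stalk proteins RPLP0, RPLP1 and RPLP2 recruit the elongation factors that hydrolyse GTP. RPLP2 had log2 signals of 12.80, 12.77 and 12.78 in IPEC-J2 and 13.07, 12.84 and 12.98 in IPEC-1, a difference of -0.18 (SE 0.0971, adjusted p = 0.228) without overlap. RPLP0 had 1 probe set at the floor on every array, and its other probe set read 13.92, 14.04 and 13.95 in IPEC-J2 and 13.95, 14.03 and 13.97 in IPEC-1, so that the cell lines overlapped. RPLP1 had a difference of -0.58 (SE 0.477, adjusted p = 0.428), which came from 1 array: a probe set at the floor elsewhere read 7.29 on IPEC-1 replicate 2. Without that array the difference of RPLP1 was -0.03, and its bright probe set differed by -0.06.

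RPLP1 was 1 of 3 members with a difference over 0.5 in size, and in each of them the difference shrank without 1 array of a dimmer probe set. RPL12, at the base of the stalk, had a difference of -0.73 (SE 0.401, adjusted p = 0.235), with a probe set at the floor on all arrays but IPEC-1 replicate 3, where it read 8.70. Without that array the difference was -0.28, and the brightest probe set of RPL12 differed by -0.17. RPS28, at the exit of the mRNA channel, had a difference of 0.75 (SE 0.642, adjusted p = 0.432). There a probe set that read 11.18, 10.88 and 11.17 in IPEC-J2 and 11.06 and 11.12 on IPEC-1 replicates 1 and 2 was at the floor on IPEC-1 replicate 3. Without that array the difference of RPS28 was 0.10, and by the brightest probe set it was -0.10, the opposite sign. RPL9 (0.28, SE 0.298) rested likewise on a probe set that read 6.89 on IPEC-J2 replicate 2 and the floor elsewhere. Its difference was -0.05 without that array and -0.11 by its brightest probe set. RPS12 (-0.40, SE 0.239, adjusted p = 0.272) changed sign as well, to 0.06 by its brightest probe set. The extremes of the range thus came from dimmer probe sets, and the brightest probe sets of these 5 genes differed by -0.17 to 0.06.

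In the small subunit the called gene was higher in IPEC-J2. RPS25, which in yeast and human cells is needed for initiation at some viral internal entry sites, averaged 9.32 ± 0.0273 in IPEC-J2 and 8.94 ± 0.0348 in IPEC-1 (SD, n = 3 each). Its log2 signals were 9.30, 9.32 and 9.35 in IPEC-J2 and 8.92, 8.93 and 8.98 in IPEC-1, a difference of 0.38 (SE 0.0812, adjusted p = 0.0237). These values average a probe set at the floor on every array with a pair whose differences were both positive. The brightest one read 13.77, 13.69 and 13.73 in IPEC-J2 and 13.39, 13.33 and 13.47 in IPEC-1 (0.33), and the middle one 10.13, 10.26 and 10.33 in IPEC-J2 and 9.37, 9.45 and 9.48 in IPEC-1 (0.81). In a fit over all probe sets only the middle one was called (adjusted p = 0.00844), where 8.79% of probe sets were called higher and 10.2% lower. RPS25 was called higher in 15 of 18 alternative fits, with adjusted p-values between 0.00182 and 0.101, and was not called without IPEC-J2 replicate 3 (0.0586) or with a block for replicate number or culture note.

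Other 40S proteins stood above or below without a call in the fit as reported. RPS15, of the head of the subunit, had 13.75, 13.85 and 13.71 in IPEC-J2 and 13.42, 13.58 and 13.55 in IPEC-1 (0.25, SE 0.0955, adjusted p = 0.112). With trend and robust options of limma RPS15 was called higher (adjusted p = 0.0263). RPS23, at the decoding centre, had 13.94, 14.00 and 13.97 in IPEC-J2 and 13.83, 13.80 and 13.83 in IPEC-1 (0.15, SE 0.0800, adjusted p = 0.223). For both genes every IPEC-J2 array was above every IPEC-1 array, as it was for RPS21 (0.15, adjusted p = 0.246) and, in the 60S subunit, for RPL19 (0.12, adjusted p = 0.313) and RPL38 (0.20, adjusted p = 0.210). RPL38 is known from mice for the translation of Hox mRNAs. Its brightest probe set read 13.35, 13.39 and 13.37 in IPEC-J2 and 13.25, 13.37 and 13.35 in IPEC-1, so that the cell lines overlapped. That probe set differed by 0.05, and the dimmer one by 0.34. RPS23, RPS21 and RPL19 are named after their values were seen and were called with the floor genes kept (adjusted p = 0.0111, 0.0363 and 0.0254). On the other side was RPSA, known also as the precursor of a laminin receptor, with 13.59, 13.71 and 13.60 in IPEC-J2 and 13.82, 13.84 and 13.88 in IPEC-1 (-0.21, SE 0.0861, adjusted p = 0.130). By limma RPSA was called lower with the floor genes kept (adjusted p = 0.0292) and with trend and robust options (adjusted p = 0.0177).

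RPS6, the substrate of the S6 kinases downstream of mTOR, had log2 signals of 11.52, 11.45 and 11.68 in IPEC-J2 and 12.08, 11.89 and 11.80 in IPEC-1, a difference of -0.37 (SE 0.119, adjusted p = 0.0728). Its brightest probe set read 13.40, 13.54 and 13.48 in IPEC-J2 and 13.83, 13.86 and 13.80 in IPEC-1. The cell lines were apart in both measures, and with the brightest probe set of each gene RPS6 was called lower (adjusted p = 0.0274). RPS4X, the X-linked form of a 40S protein, had 13.79, 13.74 and 13.77 in IPEC-J2 and 13.69, 13.74 and 13.68 in IPEC-1, a difference of 0.06 (SE 0.0807, adjusted p = 0.577). RPS27A, made as a fusion with ubiquitin, read 14.02, 14.03 and 14.04 in IPEC-J2 and 13.96, 14.01 and 13.96 in IPEC-1 by its brightest probe set, and its mean over probe sets differed by 0.00 (SE 0.118). A partial list held 8 genes that are mutated in human Diamond-Blackfan anaemia, an inherited failure of red cell production. Of these 6 were measured: RPL5, RPL11, RPS10, RPS19, RPS24 and RPS26. Their differences were from -0.21 to 0.07, and none was called by limma (1 lower at an unadjusted p under 0.05, and 2 called with trend and robust options). The list does not cover all genes of this disease and did not include RPL15, so its counts hold for the listed genes only.

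The other members called lower with the floor genes kept were RPL13 (-0.21), RPL21 (-0.21), RPL8 (-0.20), RPS9 (-0.19), RPS18 (-0.18), RPS3A (-0.12) and RPS20 (-0.11), named after their values were seen, with adjusted p-values as reported from 0.108 (RPL21) to 0.368 (RPS20). For each of them all IPEC-J2 arrays were below all IPEC-1 arrays. RPL21 had the narrowest spread of these, with 13.06, 13.11 and 13.10 in IPEC-J2 and 13.30, 13.31 and 13.30 in IPEC-1. The members not yet named here had differences between -0.31 (RPL24) and 0.12 (RPS2), and adjusted p-values from 0.146 (RPL24) to 0.948 (RPS19). RPL26, known in human cells for binding the p53 mRNA, had the floor, 6.45 and 6.00 on IPEC-J2 replicates 1, 2 and 3, and the floor, 5.91 and 6.09 on IPEC-1 replicates 1, 2 and 3, so that no direction can be given.

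**Figure D2:**
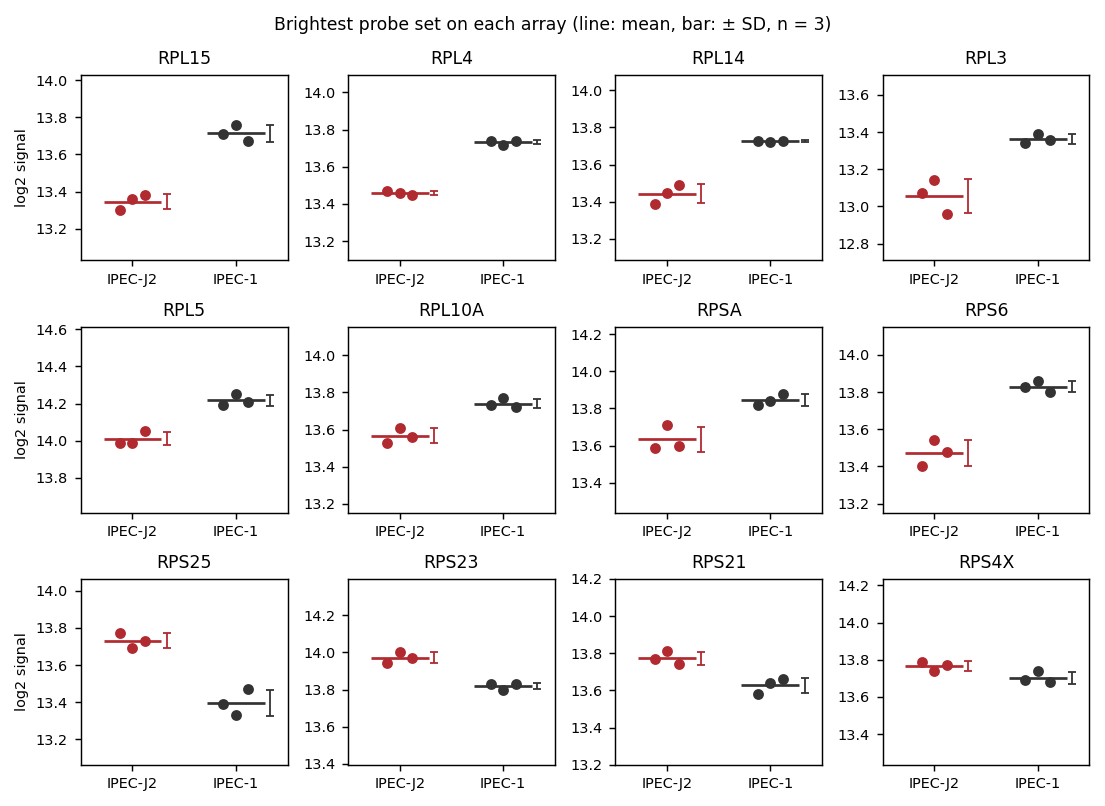
Log2 signal (y axis, each panel spanning 1 unit) of the brightest probe set of 12 ribosomal protein genes on the 3 IPEC-J2 arrays (red) and the 3 IPEC-1 arrays (black); lines are means and bars ± SD. RPL15, RPL4, RPL14, RPL3, RPL5, RPL10A, RPSA and RPS6 have all IPEC-J2 points below the IPEC-1 points, RPS25, RPS23 and RPS21 have them above, and in RPS4X they touch.

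Of the 57 genes, 34 had 1 probe set and 23 had more, up to 3. The array lists 88 probe sets for them, 5 at the floor on every array. Of the 83 others, 55 (of 51 genes) had a mean log2 signal over 13, 12 a mean from 9 to 13, and 16 a mean under 9. The median SD within a cell line was 0.0379 in the brightest class, 0.290 in the middle class and 0.381 in the dimmest, where 7 probe sets had at least 1 array at the floor. Differences spanned -0.37 to 0.33 in the brightest class, -0.46 to 2.35 in the middle one and -1.57 to 0.96 in the dimmest. In the brightest class 27 of 55 probe sets had all IPEC-J2 arrays below all IPEC-1 arrays and 8 had them above, against 23.9 and 17.4% of all 16322 probe sets tested. In this class limma called none, and 1 was higher and 10 were lower at an unadjusted p under 0.05, as were 14.9 and 18.7% of all probe sets. Of 22 genes with more than 1 probe set above the floor, 8 had only negative differences, 2 only positive ones and 12 both. RPS18 was among the first, with -0.10, -0.18 and -0.27, and RPL23, named after its values were seen, was among the last, with 0.10, -0.05 and -0.43. Ribosomal protein genes have many processed pseudogenes and some close paralogs, and how far a probe set also binds their transcripts was not tested.

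**Figure D3:**
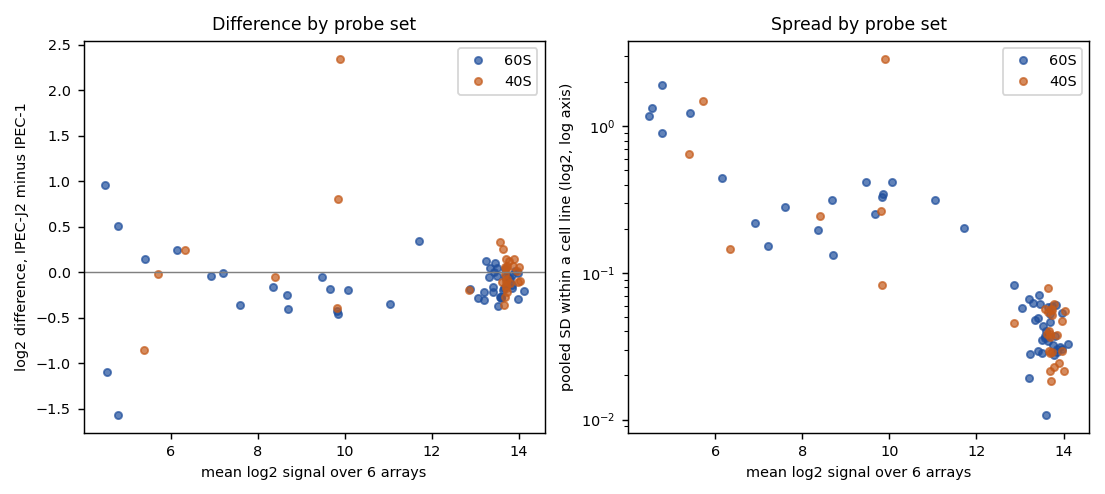
Each point is 1 of the 83 ribosomal protein probe sets above the floor, by its mean log2 signal over 6 arrays (x axis) and its log2 difference, IPEC-J2 minus IPEC-1 (left), or its pooled SD within a cell line on a log axis (right). Above 13 the differences stay between -0.37 and 0.33 and the SDs are smallest; the difference of 2.35 belongs to RPS28.

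The signals of these genes lay near the top of the scale. The highest signal of an array was 14.19 to 14.34, and 51 members had a brightest probe set within 1 of it on at least 1 array, 44 of them on every array. By the brightest probe set of each gene, 50 members were over 13 in both cell lines, while 1.85% of all genes had a mean over 13. Whether probes were saturated was not tested, since the table carries no flag for it. By the mean over probe sets, the 29 other genes with a mean over 13 had a median difference of 0.07, with 3 called higher and 3 lower. Taking for each gene its brightest probe set, 1 member was called higher (RPS25) and 7 lower (RPL15, RPS6, RPL3, RPL13A, RPL14, RPL24 and RPL4), where 14.6 and 17.1% of all genes were called. The arrays then separated as higher for 8 members and as lower for 27, against 21.5 and 28.6% of all genes. By subunit, 19 of 33 genes of the 60S and 8 of 22 of the 40S had all IPEC-J2 arrays lower, and 1 of the 60S and 7 of the 40S had them higher. RPL13A, which in human cells can leave the ribosome to silence mRNAs of inflammation, had 13.78, 13.86 and 13.84 in IPEC-J2 and 14.12, 14.13 and 14.11 in IPEC-1 by this measure (-0.29, adjusted p = 0.0391). With the mean over its probe sets, 1 of them at the floor on every array, the difference was -0.22 (adjusted p = 0.179).

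**Figure D4:**
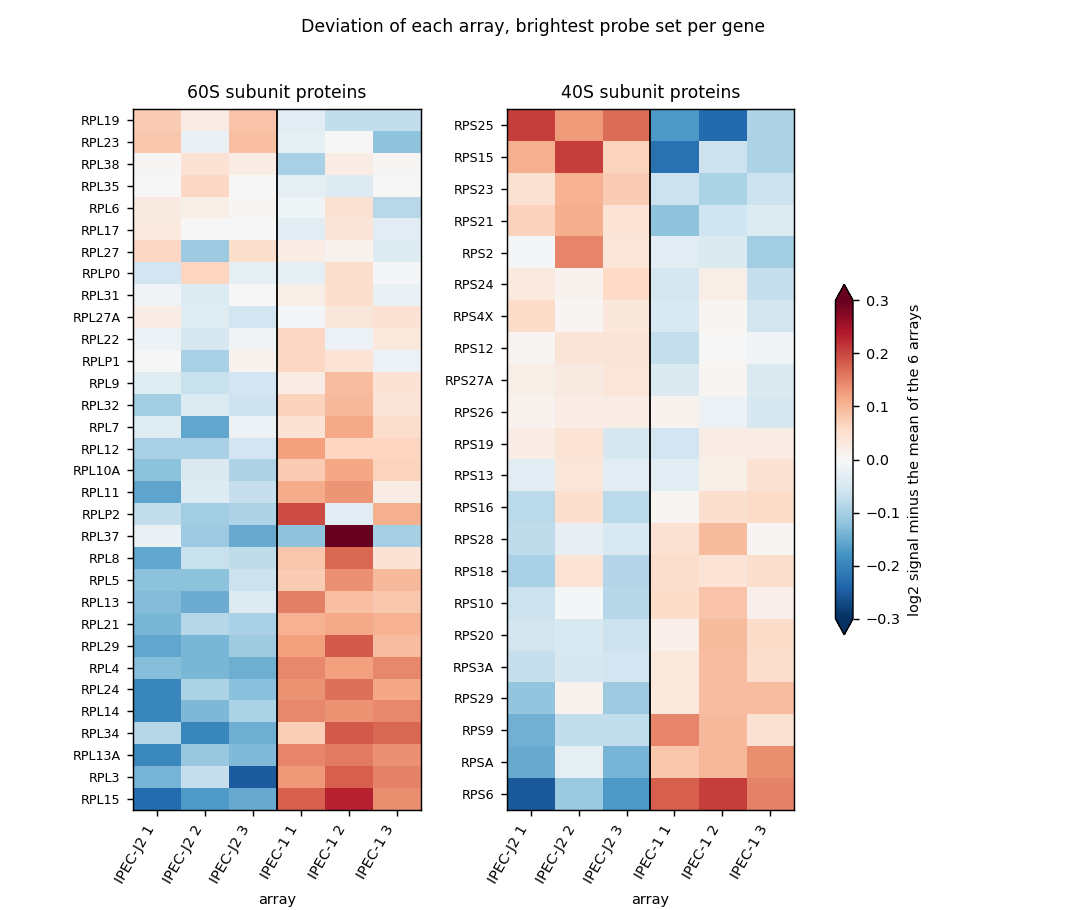
Log2 signal of the brightest probe set of each gene on each array, minus its mean over the 6 arrays, for 60S (left) and 40S (right) proteins, ordered by the difference between the cell lines; the 3 columns left of the black line are IPEC-J2 and the 3 right of it IPEC-1. RPL26 is left out (floor on an array of each line), and colours stop at ± 0.3. The lower part of the 60S panel is blue in IPEC-J2 and red in IPEC-1 on nearly every array, while the 40S panel runs both ways.

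The descriptions of some cultures in the labels share a note. IPEC-J2 replicate 3 and IPEC-1 replicate 1 share note A, and IPEC-J2 replicate 1 and IPEC-1 replicate 2 share note B. Within note A the median difference of the members was -0.09 and that of all genes 0.00. Within note B it was -0.16 for the members and -0.14 for all genes. The members thus lay further below the median of the table in note A than in note B. In both notes 34 members were negative, and in both 11 were positive. Of these signs, those of 23 lower and 7 higher members were fixed beforehand, as their arrays did not overlap between the cell lines. For those members the counts add no support, and the share over all genes is not given. RPL15 differed by -0.33 within note A and -0.46 within note B, and RPS25 by 0.43 and 0.37. RPL15 and RPS25 are among the members whose sign within a note was fixed. With the note as a block, and the remaining arrays taken as a pair, no member was called by limma, where 9.92% of all genes were called higher and 10.1% lower.

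Beside the ribosomal proteins themselves, the paralogs whose names end otherwise differed by more. RPL22L1, which can stand in for RPL22, had log2 signals of 10.82, 10.90 and 10.82 in IPEC-J2 and 12.09, 12.26 and 12.19 in IPEC-1, a difference of -1.33 (SE 0.0917, adjusted p = 0.000482). RPL22 itself read 13.73, 13.70 and 13.74 in IPEC-J2 and 13.81, 13.73 and 13.78 in IPEC-1 (-0.05, SE 0.0813, adjusted p = 0.668). The paralog was thus lower in IPEC-J2 by 2.52-fold, without overlap, while RPL22 overlapped between the lines. RPL26L1 (-0.64, SE 0.106, adjusted p = 0.0110) and RPL36AL (-0.47, SE 0.0835, adjusted p = 0.0134) were lower as well, and RPL7L1 had a difference of -0.49 (adjusted p = 0.0535). In all, 3 of the 4 measured paralogs were called lower (1 with the replicate number as a block) and none higher, beside 13.8% and 12% of the table, and paralogs and ribosomal proteins were not tested against each other. Of the ribosomal components with other names, RACK1, a scaffold at the 40S head, had a difference of 0.82 (SE 0.346, adjusted p = 0.143). Its log2 signals were 10.18, 8.89 and 9.935 in IPEC-J2 and 8.835, 8.865 and 8.835 in IPEC-1. IPEC-J2 replicate 2 thus lay close to the IPEC-1 arrays, and the difference rested on the other IPEC-J2 arrays. FAU, a ubiquitin-like fusion with a 40S protein, had a difference of 0.33 (SE 0.200, adjusted p = 0.274), and its arrays overlapped between the lines.

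Of 17 listed other TOP mRNAs, which code mainly for translation factors, 15 were measured, 1 called higher and 5 lower, with a median of -0.23, where 12% and 13.8% of all genes were called. With the culture note as a block 2 were called lower, and with the replicate number as a block none was called in either direction. The lower ones were subunits of the initiation factor eIF3 (EIF3H -0.59, EIF3L -0.50, EIF3K -0.48 and EIF3E -0.45) and EEF1D (-0.46), a subunit of the exchange factor of elongation. EIF3H had log2 signals of 12.28, 12.25 and 12.52 in IPEC-J2 and 12.90, 12.95 and 12.98 in IPEC-1 (SE 0.109, adjusted p = 0.0149). NAP1L1, a histone chaperone, was the higher one (0.60, SE 0.0987, adjusted p = 0.0108). The elongation factor EEF1A1 had a difference of 0.16 (adjusted p = 0.274) and TPT1 one of 0.01 (adjusted p = 0.923). Of 18 listed regulators of TOP mRNAs, mTOR and its partners among them, 9 were measured, and the 7 without an array at the floor had differences from -0.69 to 0.33. None was called by limma or with trend and robust options, and 1 was lower at an unadjusted p under 0.05.

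Genes that build ribosomes moved both ways. Of 130 listed biogenesis genes 90 had a value and 87 were tested, 6 called higher and 11 lower, with a median of -0.08, where 12% and 13.8% of all genes were called. Without IPEC-J2 replicate 3 there were 3 called higher and 3 lower, with the culture note as a block 3 and 6, and with the replicate number as a block 2 and 1. NPM1, the nucleolar chaperone nucleophosmin, had log2 signals of 12.81, 12.73 and 12.87 in IPEC-J2 and 11.57, 11.04 and 11.01 in IPEC-1, a difference of 1.60 (SE 0.177, adjusted p = 0.00309), or 3.02-fold higher. The other higher genes with the largest differences were EFL1 (0.84), a GTPase that frees the 60S subunit of EIF6, and the nucleolar proteins NOL6 (0.83) and NOP16 (0.68). Of the genes called lower, the largest differences were those of the helicase DDX47 (-0.79), GAR1 (-0.72), of the particles that make pseudouridine, the nucleolar GTPase GNL3 (-0.70) and the 60S assembly factor NIP7 (-0.69). Of 41 listed genes of RNA polymerases I and III, which make the ribosomal RNAs, 18 were measured, none called higher by limma (1 at an unadjusted p under 0.05) and 5 lower, with a median of -0.06. The lower calls were 3 without IPEC-J2 replicate 3, IPEC-1 replicate 1 or IPEC-1 replicate 3, 2 with the culture note as a block and 0 with the replicate number as a block. Among the 5 were the subunits POLR1C (-0.70), POLR3C (-0.67) and POLR2H (-0.56), and MAF1 (-0.62), a repressor of polymerase III.

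The ribosome of the mitochondria is a separate particle, with its proteins made in the cytosol and imported. All 58 of its measured genes with a symbol beginning MRPL or MRPS were tested, with 2 called higher, 14 lower and a median of -0.21. The lower calls were 7 without IPEC-1 replicate 1 or IPEC-1 replicate 2, 8 without IPEC-J2 replicate 3, 5 with the culture note as a block and 2 with the replicate number as a block. As reported, 14 of 58 genes were lower, where 13.8% of the table and 1 of 55 cytosolic ribosomal protein genes were lower, and the median SD within a cell line was 0.145 against 0.0567 for the cytosolic ones. This contrast depended on the fit. With the floor genes kept, 17 of 58 mitochondrial and 15 of 55 cytosolic genes were lower, where 13.8% of the genes above the floor were. With trend and robust options the counts were 16 of 58 and 16 of 55, where 15.8% of the genes were lower. The difference between these shares was not tested. MRPS30 (-0.87), MRPL13 (-0.85), MRPL2 (-0.80) and MRPL24 (-0.77) had the largest differences among the lower and MRPS35 (1.16) and MRPS14 (0.64) were the higher ones. MRPL13 had log2 signals of 9.18, 9.30 and 9.33 in IPEC-J2 and 10.18, 10.14 and 10.05 in IPEC-1. The 56 mitochondrial genes without an array at the floor had differences from -0.87 to 1.16. The others were MRPS27, at the floor on IPEC-J2 replicates 1 and 3, and MRPL4, at the floor on IPEC-J2 replicate 1, and neither was called.

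**Figure D5:**
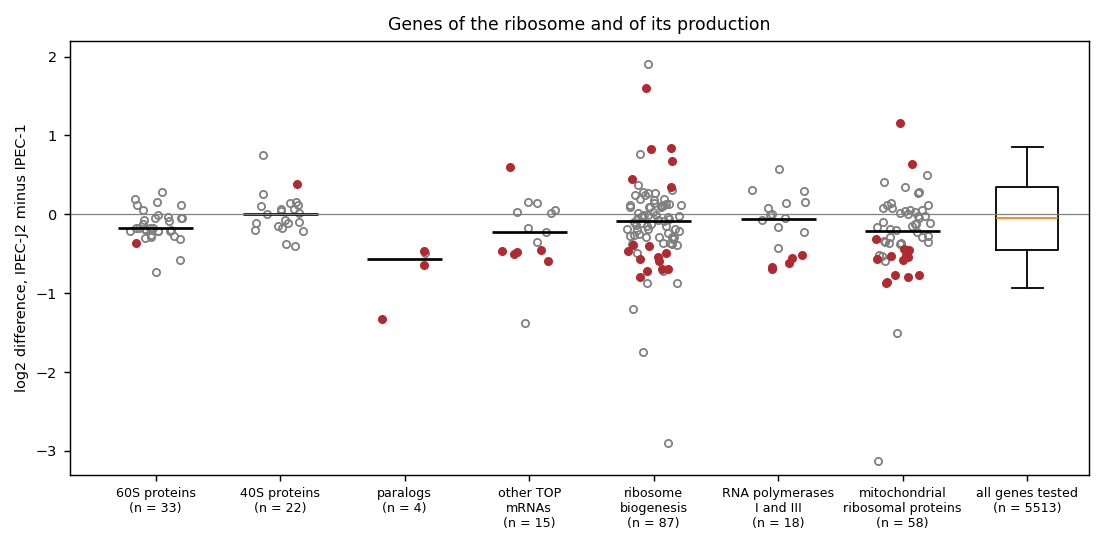
Log2 difference, IPEC-J2 minus IPEC-1 (y axis), of each gene tested in the ribosomal protein groups and in lists of genes around the ribosome; red points were called, grey rings were not, and black lines are medians. The box of all 5513 genes shows the quartiles and median, with whiskers at the 10th and 90th percentiles. The 60S and 40S genes lie closer to 0 than the other lists.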

How the data were processed

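RNA from 3 IPEC-J2 and 3 IPEC-1 cultures was hybridised to 6 arrays. The authors deposited log2 signals made with GCOS 1.1.1 and PLIER, per the submitters' processing notes, and the methods name GCOS with global scaling, then background correction, a normalization of unnamed kind and summary of probe sets. Whether these steps apply to the deposited PLIER signals, and the base of the logarithm, are not given in the sources used here. The table was read as log2 because its floor of 4 is the log2 of 16, and was not normalized further. No detection calls were used, and precision is limited by having 6 arrays. Of 24123 probe sets, 124 were controls, 10069 had 1 gene symbol in the platform annotation, 198 had several and 13732 were unnamed here. All 88 member probe sets carried the same symbol in the RefSeq gene table. As the methods did, probe sets with a common symbol were averaged.

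The comparison used lmFit and default eBayes of limma 3.58.1 (R 4.3.3) with Benjamini-Hochberg adjustment, tested on simulated data. Genes at the floor throughout (1252) were left out. An exact permutation test of 3 against 3 arrays cannot give a p under 0.1, and none was used. The members and lists were chosen with earlier results of these data known. Named were members called, the 5 largest differences in each direction, RPL10A, RPSA, RPLP0, RPLP1, RPLP2, RPS6, RPL5, RPL11, RPS27A, RPS4X, and up to 4 called genes per direction of each list, and others as stated. Leaving floor probe sets out of the mean was an alternative chosen after seeing the data. The labels do not pair the replicate numbers, and deviations from the group means of same-numbered arrays correlated at -0.06, -0.11 and 0.06. Some genes are not reported here, and figures were drawn with matplotlib 3.10.9.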

Additional observations from a re-analysis of the deposited data

How the results depend on the processing

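As reported, 1 ribosomal protein gene was called higher and 1 lower. The higher and lower counts were 4 and 15 with genes kept that are at the floor throughout, 4 and 16 with trend and robust options, 5 and 20 by the methods' t-test unadjusted (16.7 and 20.9% of all genes), 4 and 14 by the same test after Benjamini-Hochberg adjustment (10.8 and 12.3%), and 0 and 0 with the replicate number as a block or with the culture note as a block. Higher calls stayed at 1 and lower calls were 7 with the brightest probe set (17.1% of all genes), 7 after quantile normalization (16.7%), 0 with arrays centred on their 75th percentile (13.7%), 4 with genes of a mean under 6 left out (18.1%) and 6 with the culture note as a random block (17.8%). An offset of 16 and the mean without floor probe sets left both counts at 1. Leaving out 1 array gave 0 to 1 higher and 0 to 2 lower (0 and 0 without IPEC-J2 replicate 3, 0 lower without IPEC-1 replicate 1). The causes were not tested beyond the spread estimates given above.

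Over all genes the block for replicate number gave 283 higher and 309 lower, against 662 and 762 without it, with 2 fewer residual degrees of freedom, the methods' t-test unadjusted gave 1154 lower, and leaving out an array gave 416 to 711 higher and 460 to 659 lower (416 and 460 without IPEC-J2 replicate 3). Centring on the 75th percentile turned the split of all genes to 14.6% higher and 13.7% lower. The median of the members was -0.0533 with that centring (all genes 0.00333), -0.16 within note B and -0.13 to -0.0717 with an array left out.

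Among 18 named genes, signs turned for RPL9 (-0.11 by the brightest probe set, -0.0511 to 0.47 with an array left out), RPS12 (0.0567) and RPS28 (-0.10) by the brightest probe set, and RPLP0 (0.05 with 75th percentile centring, -0.0242 to 0.00583 with an array left out). Other members, named after their values were seen, also turned by the brightest probe set. RPL34 went from 0.11 to -0.29, without overlap. The rest were RPL7, RPL35, RPL23, RPS13, RPL17, RPL6 and RPL27. Of 342 tested values of 18 named genes under the alternatives, 306 kept direction and side of the threshold. Only RPL15 and RPS25 of the 18 were called as reported, so most of the 306 belong to genes that stayed uncalled. RPL15 kept its call in 13 and RPS25 in 15 of 18 alternative fits.

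The limits are few arrays, signals near the top of the scale for most members, probe sets that may bind related transcripts, and a normalization known only in outline. Without IPEC-J2 replicate 1, the array with the lowest 75th percentile, the median of the members was -0.11, and RPL15 and RPS25 were called.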
